A study of Rattus norvegicus with 6 samples.

Results

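The miRNAs described here are those regarded as typical of the pancreas: both arms of miR-216a, miR-216b and miR-217, which are transcribed from neighboring stem-loops and are enriched in acinar cells, and miR-375-3p, which is enriched in the endocrine islets. They were chosen by name, and all 7 were found among the 763 mature rat miRNAs of the deposited count table. Plasma exosomes, small membrane vesicles that carry RNA, came from male Sprague-Dawley rats 7 to 8 weeks old. In the RIPC rats, blood flow to both hind limbs had been stopped and restored in 4 cycles, each with 5 min of ischemia, whereas the control rats had none of these cycles, and blood was drawn from both groups 48 h later under anesthesia. Small RNA libraries were made from 3 samples of Control-exosome (C-exo) and 3 of RIPC-exosome (R-exo), to ask how the miRNA content of plasma exosomes differed at the late phase of RIPC. Neither the labels nor the methods say whether a sample held the plasma of 1 rat or of several, so p-values measure the spread between these samples.

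Acinar cells make and secrete the digestive enzymes of the pancreas, and miR-216a, miR-216b and miR-217 are among the miRNAs that set this tissue apart from other organs. Their release into blood is a known sign of acinar cell damage in rats. miR-375 is abundant in the insulin-secreting beta cells, where it restrains insulin secretion, and it is also made in other neuroendocrine cells and in the epithelium of the gut. Each stem-loop can give a mature miRNA from its 5′ arm (5p) and from its 3′ arm (3p). The arm that is retained represses transcripts mainly through its seed, bases 2 to 8.

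The mature sequences are shown because the seeds show which of these miRNAs could share targets and because their differences bear on how reads were told apart. They are taken from NCBI RefSeq (assembly GRCr8), in which all 7 had an entry, and are written 5′ to 3′ with the seed in capitals:
rno-miR-216a-5p: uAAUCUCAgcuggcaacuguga
rno-miR-216b-5p: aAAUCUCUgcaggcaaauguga
rno-miR-216a-3p: cACAGUGGucucugggauuaug
rno-miR-216b-3p: cACACUUAcuuguagagauu
rno-miR-217-5p: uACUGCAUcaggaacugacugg
rno-miR-217-3p: aUCAGUUCcuaaugcauugccu
rno-miR-375-3p: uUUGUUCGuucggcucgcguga

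No 2 of these seeds were the same, and no other of the 693 mature rat names in the RefSeq table carried any of them. The nearest pair was miR-216a-5p and miR-216b-5p, which were identical at 18 of 22 positions. Numbered from 1 at the 5′ end and with the miR-216a-5p base written first, the differences were U1A, A8U, U11A and C17A, so that the seeds differed only at their last base. The rule by which the authors' counting assigned reads that match several miRNAs is not given in the sources used here, and a split of reads between these closely related arms could not be checked.

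The stem-loops of miR-216b, miR-216a and miR-217 follow each other in this order on the plus strand of chromosome 14 in GRCr8, and that of miR-217 is followed by Efemp1, a gene for an extracellular matrix protein. All 3 overlap the span of the long non-coding RNA gene LOC102550402. The stem-loop of miR-375 is on the minus strand of chromosome 9, overlaps the spans of Cryba2, a crystallin gene, and LOC134480387, and has Fev, the gene of a transcription factor, and Cfap65 beside it. Positions are not given because the submitters' processing notes name rn6, an earlier assembly.

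The stem-loops of miR-217 and miR-375 are shown because each was read from a single arm. The capitals mark the arm with counts:
miR-217 stem-loop: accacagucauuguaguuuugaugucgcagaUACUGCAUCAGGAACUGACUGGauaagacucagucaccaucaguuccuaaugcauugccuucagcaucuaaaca
miR-375 stem-loop: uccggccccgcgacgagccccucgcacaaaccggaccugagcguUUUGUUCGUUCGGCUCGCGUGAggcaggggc

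The libraries held 5484209 to 7531737 miRNA reads in C-exo and 6982273 to 7380752 in R-exo. Levels are given as CPM, counts scaled by library size and by TMM factors, which lay between 0.814 and 1.16. The smallest amount taken as measurable, 3 counts, was 0.398 to 0.547 CPM before TMM scaling. No molecular identifiers are described, so reads may be PCR copies of each other, and intervals drawn from counts reflect counting error alone. miRNAs typical of blood cells, vessels, liver and striated muscle were all found beside the pancreatic ones, as is usual for plasma. Less RNA per vesicle and fewer vesicles of a cell type cannot be told apart in such samples.

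miR-375-3p was by far the most abundant of the 7, followed at a distance by miR-217-5p, while the 4 arms of miR-216a and miR-216b had at most 14 counts outside R-exo replicate 2 and miR-217-3p was not detected. miR-375-3p had 106389 counts over the 6 libraries, miR-217-5p had 1325, miR-216b-5p had 104, miR-216b-3p had 67, miR-216a-5p had 40 and miR-216a-3p had 32. By count, miR-375-3p ranked between 28 and 55 in the 6 libraries and miR-217-5p between 155 and 327. miR-375-3p made up 0.173% to 0.435% of a library. The 6 arms of the miR-216a, miR-216b and miR-217 cluster together made up 0.000456% to 0.0148%. At least 1 read was counted for 3, 4 and 6 of the 7 miRNAs in C-exo replicates 1, 2 and 3, and for 6, 6 and 5 in R-exo replicates 1, 2 and 3.

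**Figure D1:**
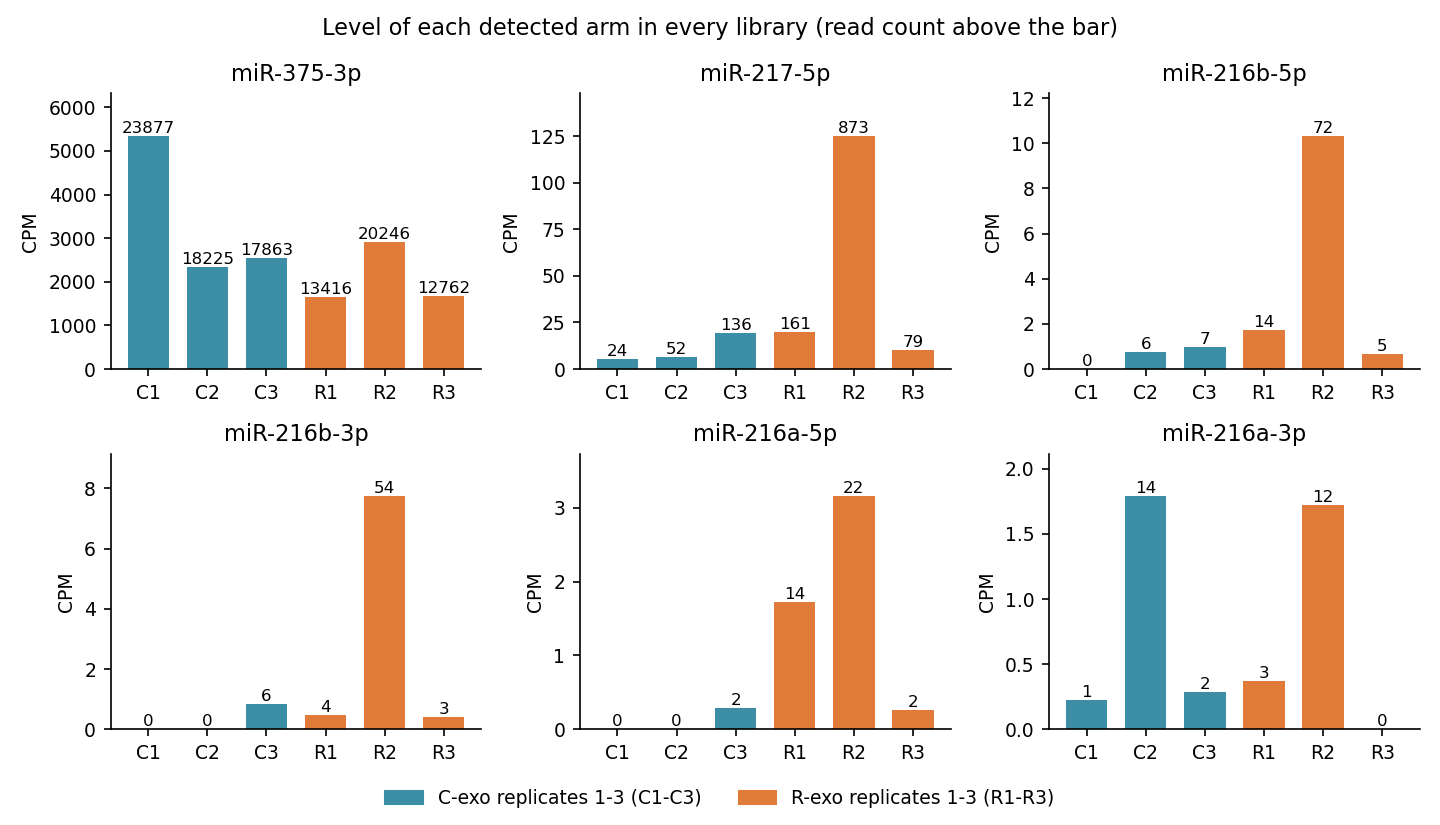
Bars give the CPM of each detected arm in C-exo replicates 1 to 3 (C1 to C3) and R-exo replicates 1 to 3 (R1 to R3), on axes that start at 0, with the read count above each bar. R-exo replicate 2 was the highest library for miR-217-5p (873 counts), miR-216b-5p (72), miR-216b-3p (54) and miR-216a-5p (22), whereas miR-375-3p was highest in C-exo replicate 1 (23877).

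Each library's value is given first for miR-217-5p, the main acinar miRNA of these samples. miR-217-5p had 24, 52 and 136 counts in C-exo replicates 1, 2 and 3, or 5.38, 6.66 and 19.3 CPM. In R-exo replicates 1, 2 and 3 it had 161, 873 and 79 counts, or 19.8, 125 and 10.4 CPM. The groups overlapped, because R-exo replicate 3 lay below C-exo replicate 3, and R-exo replicate 1 was close to C-exo replicate 3. For the unscaled counts the exact Poisson 95% intervals, which cover counting error alone, were 15.4 to 35.7 and 114 to 161 counts for C-exo replicates 1 and 3, and 62.5 to 98.5 and 816 to 933 counts for R-exo replicates 3 and 2.

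Between groups, miR-217-5p averaged 51.9 ± 63.8 CPM (SD, n = 3) over R-exo against 10.5 ± 7.72 CPM (SD, n = 3) over C-exo. The log2 fold change was 2.30 (standard error, SE, 0.93, 95% interval 0.20 to 4.40, unadjusted p = 0.0347, adjusted p = 0.46, by the quasi-likelihood test of edgeR with Benjamini-Hochberg adjustment over 404 miRNAs). By the exact two-sided permutation test of mean CPM, p was 0.2, where 0.1 is the smallest that 3 libraries against 3 allow. The difference rested on R-exo replicate 2, which held 80.6% of the summed R-exo CPM of miR-217-5p and was 8.29 times the mean of the other R-exo libraries, 15.1 CPM. Without R-exo replicate 2 the log2 fold change was 0.55 (95% interval -1.03 to 2.14, unadjusted p = 0.46 by edgeR). The unadjusted p was also over 0.05 without C-exo replicate 1 (unadjusted p = 0.0831 by edgeR), without C-exo replicate 2 (unadjusted p = 0.092 by edgeR), with limma-voom in place of edgeR (unadjusted p = 0.094) and with the replicate number as a block (log2 fold change 1.77, unadjusted p = 0.117 by edgeR).

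The weight of single libraries in the R-exo level is given for other miRNAs as a description, since R-exo replicate 2 was chosen as the library with the highest sum of the acinar arms. Over the tested miRNAs outside the members, the median share held by R-exo replicate 2 was 32.8%, and the largest, for miR-871-3p of an X-linked cluster known from testis, was 76.9%. Other tested miRNAs rested on 1 library to a similar degree as miR-217-5p. By the largest share held by any R-exo library miR-217-5p ranked 4 of the 404 tested miRNAs, after miR-133a-5p (94.8%), miR-133b-3p (86.6%) and miR-208b-3p (81.5%), which are miRNAs of striated muscle and had this share in R-exo replicate 1. Among the 411 miRNAs with at least 30 R-exo counts, a minimum chosen after the values were seen, 6 had over 80% in R-exo replicate 2. These were miR-216b-3p (89.7%), miR-216b-5p (81.3%) and miR-217-5p itself, and 3 miRNAs of the testis cluster, miR-741-3p (95.7%), miR-881-3p (82.8%) and miR-471-5p (80.9%). The summed CPM of the 10 listed testis-cluster miRNAs was 33.3 in R-exo replicate 2 and 0.768 to 5.60 in the other libraries, with miR-878 at 0 in all 6 and 1 of the 10 abundant enough to be tested. Its part in the acinar values was not tested.

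**Figure D2:**
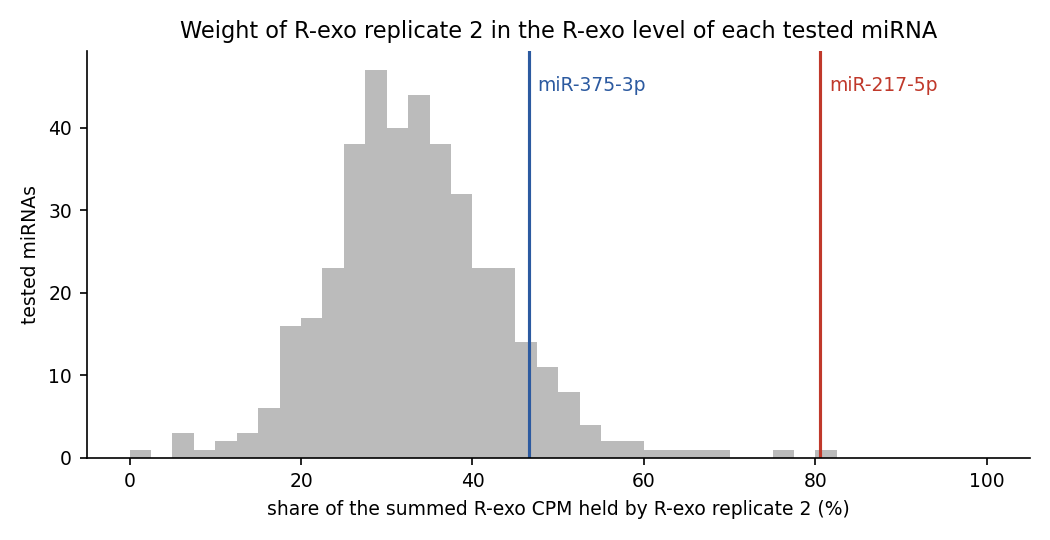
The histogram counts the 404 tested miRNAs (y axis) by the share of their summed R-exo CPM that R-exo replicate 2 held (x axis, %), and lines mark miR-217-5p (80.6%) and miR-375-3p (46.6%). Most miRNAs lie around the median of 32.8%, and miR-217-5p, one of the miRNAs by which this library was chosen, stands at the right end.

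The miR-216b arms followed miR-217-5p in being highest in R-exo replicate 2. miR-216b-5p had 0, 6 and 7 counts in C-exo replicates 1, 2 and 3, and 14, 72 and 5 counts in R-exo replicates 1, 2 and 3. miR-216b-3p, its partner from the same stem-loop, had 0, 0 and 6 counts in C-exo and 4, 54 and 3 counts in R-exo in the same order. The groups overlapped for both arms, since R-exo replicate 3 had fewer counts than C-exo replicate 3.

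miR-216a-5p had 0, 0 and 2 counts in C-exo replicates 1, 2 and 3, and 14, 22 and 2 counts in R-exo replicates 1, 2 and 3. It was above the floor of 3 counts only in R-exo replicates 1 and 2. Its opposite arm miR-216a-3p behaved differently, with 1, 14 and 2 counts in C-exo and 3, 12 and 0 counts in R-exo in the same order. Here C-exo replicate 2 was the highest library and R-exo replicate 3 the lowest.

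None of the miR-216a and miR-216b arms was abundant enough to pass edgeR's filter on low counts, so these arms were not tested. Pooled over the libraries of a group and scaled to library size, miR-216b-5p was 6.56 times as high in R-exo as in C-exo (95% counting interval 3.65 to 12.8) and miR-216b-3p 9.53 times (4.13 to 27.0). For miR-216a-5p, with 2 counts in all of C-exo, the ratio was 17.8 (4.60 to 152), and for miR-216a-3p it was 0.827 (0.385 to 1.76). These intervals leave out the spread between libraries. R-exo replicate 2 supplied 57.9% to 88.5% of the R-exo counts of these 4 arms, least for miR-216a-5p and most for miR-216b-3p.

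The use of the 2 arms differed between the stem-loops. All 1325 reads of miR-217 came from the 5p arm and 0 from miR-217-3p, where the floor of 3 counts would be a share of 0.226%. For miR-216b the 5p arm held 60.8% of 171 reads (Wilson 95% interval 53.3% to 67.8%), with 68.4% of 19 reads in C-exo (46.0% to 84.6%) and 59.9% of 152 reads in R-exo (51.9% to 67.3%), whose intervals overlap. For miR-216a the 5p arm held 10.5% of 19 reads in C-exo (2.94% to 31.4%) and 71.7% of 53 reads in R-exo (58.4% to 82.0%). The C-exo value came mostly from replicate 2, where 0 of 14 reads were 5p. The other C-exo libraries together held 5 reads of this stem-loop, 2 of them 5p, so that 1 library decided the arm share of the group. miR-375 was read from its 3p arm alone, with 0 reads of miR-375-5p against 106389 of miR-375-3p. Here the floor of 3 counts would be a share of 0.00282%.

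Summed over its 6 arms, the cluster had 5.60, 9.22 and 21.8 CPM in C-exo replicates 1, 2 and 3, and 24.1, 148 and 11.7 CPM in R-exo replicates 1, 2 and 3. R-exo replicates 1 and 2 were above each C-exo library, and R-exo replicate 3 was within the C-exo range. The sum averaged 61.4 ± 75.5 CPM (SD, n = 3) over R-exo against 12.2 ± 8.48 CPM (SD, n = 3) over C-exo, a ratio of 5.04, and the ratio of the medians was 2.62. miR-217-5p made up 72.2% to 96.0% of the cluster's reads in the C-exo libraries and 82.1% to 88.8% in the R-exo libraries. The sum was given no test, since it adds members chosen with earlier results known.

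miR-375-3p, the islet miRNA, had a lower mean in R-exo than in C-exo, with overlap between the groups. Its level was 5352, 2333 and 2541 CPM in C-exo replicates 1, 2 and 3, and 1652, 2907 and 1684 CPM in R-exo replicates 1, 2 and 3. C-exo replicate 1 stood above the other 5 libraries, R-exo replicates 1 and 3 were the lowest, and the groups overlapped through R-exo replicate 2, which was above C-exo replicates 2 and 3. It averaged 2081 ± 716 CPM (SD, n = 3) over R-exo against 3409 ± 1686 CPM (SD, n = 3) over C-exo.

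The log2 fold change of miR-375-3p was -0.71 (SE 0.49, 95% interval -1.82 to 0.40, unadjusted p = 0.182 by edgeR, adjusted p = 0.508), and exact permutation of mean CPM, two-sided, gave p = 0.3. The difference was not larger than the spread between libraries by these tests, and the interval includes both no change and a log2 fold change of -1.82. Without C-exo replicate 1 the log2 fold change was -0.30 (unadjusted p = 0.523 by edgeR), and without R-exo replicate 2 it was -1.02 (unadjusted p = 0.124 by edgeR). The miRNAs typical of red cells, 5 in the list, summed to 198200 CPM in C-exo replicate 1 and to 44970 to 92480 CPM in the other libraries. Of the sum in C-exo replicate 1, 195800 CPM was miR-486, whereas none of the other 4 was highest there and miR-451-5p was lowest there. Their part in the miR-375-3p level was not tested.

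**Figure D3:**
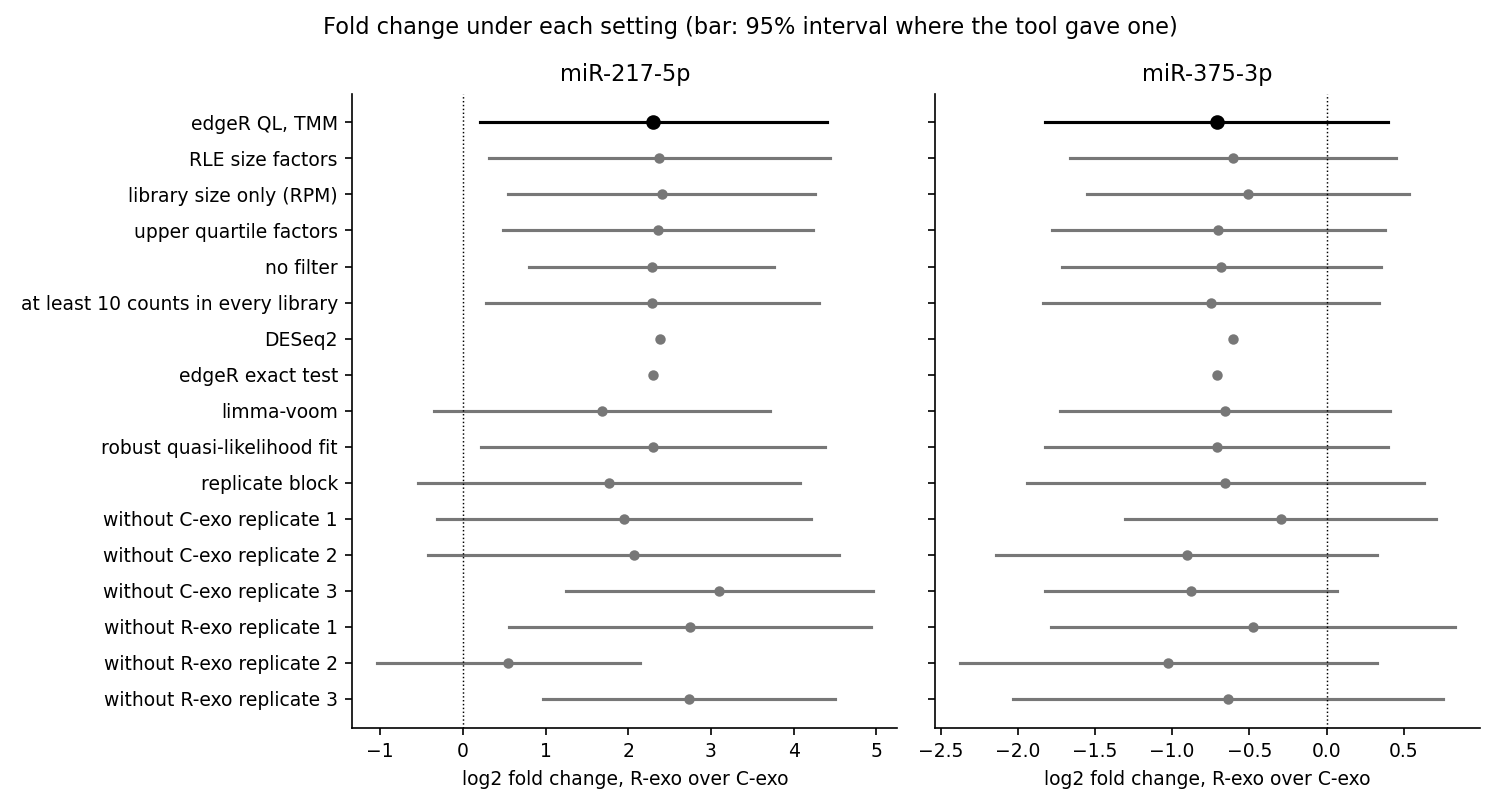
Points give the log2 fold change of R-exo over C-exo (x axis) for miR-217-5p and miR-375-3p under each setting (y axis), with 95% intervals where the tool gave one and the reported fit in black. miR-217-5p stayed above 0, between 0.55 and 3.10, and miR-375-3p stayed below 0, between -1.02 and -0.30.

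Of the 2 members that could be tested, miR-217-5p met the criterion of more than a 2-fold change at an unadjusted p under 0.05, higher in R-exo, as did 1.98% of the 404 tested miRNAs. Neither tested member met it in the opposite direction, which 7.43% of the tested miRNAs did. The balance of these calls, 8 toward R-exo against 30 toward C-exo, depended on the processing: it was 12 and 25 with RLE factors, 18 and 15 with library size only, 17 and 32 with DESeq2, 27 and 22 with limma-voom, and 25 and 13 with the replicate block. No member had an adjusted p under 0.05 with edgeR, as was the case for all tested miRNAs (0%), with 38 of the 404 under 0.05 unadjusted. DESeq2, edgeR's exact test and limma-voom also gave 0 miRNAs with an adjusted p under 0.05, with 50, 45 and 50 under 0.05 unadjusted. The groups were fully separated, without overlap, in 4.95% of the tested miRNAs with R-exo higher and in 7.92% with C-exo higher, and overlapped in both tested members. C-exo replicate 3 decided the adjusted values: without it 132 of 422 tested miRNAs had an adjusted p under 0.05, among them miR-217-5p (log2 fold change 3.10, adjusted p = 0.0179 by edgeR). miR-216a-5p was under this threshold too, but it had no read in the remaining C-exo libraries and entered that fit only through R-exo, so its direction was fixed by the filter.

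The islet miRNA was set against the acinar miRNA within each library, a ratio on which the scaling of libraries has no effect. There were 995, 350 and 131 reads of miR-375-3p for each read of miR-217-5p in C-exo replicates 1, 2 and 3. In R-exo replicates 1, 2 and 3 there were 83.3, 23.2 and 162. R-exo replicates 1 and 2 were below each C-exo library, and R-exo replicate 3 was above C-exo replicate 3, so the groups overlapped. On the log2 scale the ratio was 8.48 ± 1.46 in C-exo and 6.08 ± 1.42 in R-exo (SD, n = 3 each), a difference of -2.40. The size of the difference depended on single libraries of both groups: leaving out 1 library, a step added after the values were seen, gave -1.62 without R-exo replicate 2, -1.66 without C-exo replicate 1, -3.02 without R-exo replicate 3 and -3.12 without C-exo replicate 3.

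**Figure D4:**
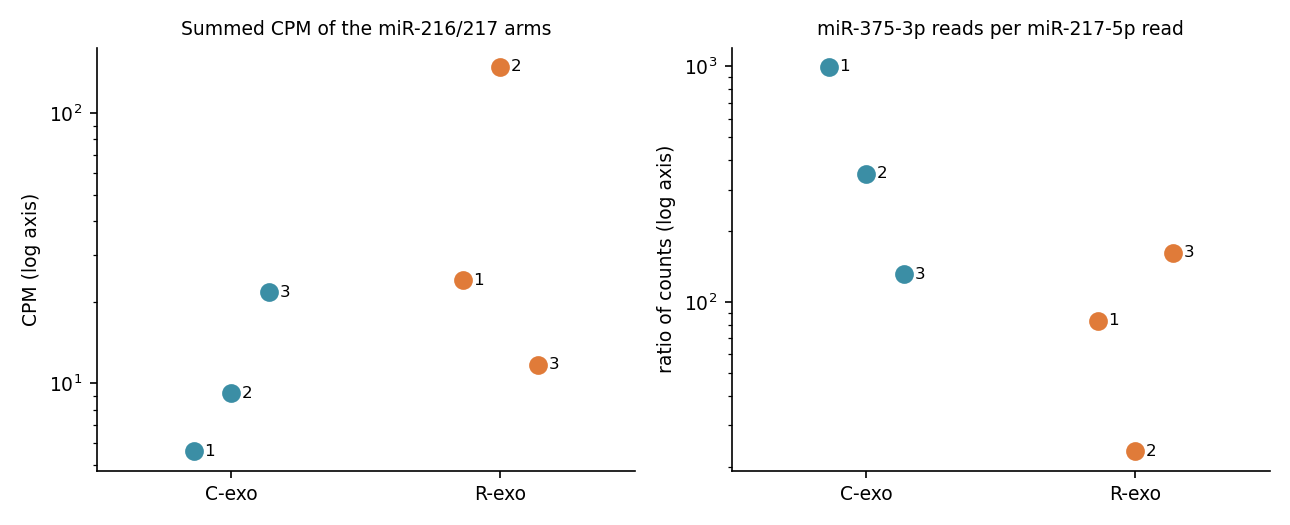
Points are libraries, numbered by replicate, for the summed CPM of the 6 cluster arms (left) and the miR-375-3p reads per miR-217-5p read (right), both on log axes. The sum runs from 5.60 to 21.8 CPM in C-exo and from 11.7 to 148 CPM in R-exo, and the ratio from 131 to 995 in C-exo and from 23.2 to 162 in R-exo.

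Other miRNAs that are expressed in the pancreas, none of them limited to it, were taken from a list of 11. Of these, 9 were tested, 8 had a log2 fold change above 0 and none passed an unadjusted p of 0.05 in either direction (edgeR). Their median log2 fold change was 0.45, against -0.05 for all 404 tested miRNAs, of which 48.8% were above 0. With limma-voom 1 of the 9 had an unadjusted p under 0.05. With at least 10 counts required in every library, 7 of the 9 were above 0. miR-153-3p had no read in any library, and miR-96-5p was too rare to test. R-exo replicate 2 was the highest library for 2 of the 9, and for 12.9% of all tested miRNAs. R-exo replicate 3 was highest for 3 of the 9 (11.9% of all), C-exo replicate 3 for 2 (17.8%), C-exo replicate 2 for 1 (10.6%), R-exo replicate 1 for 1 (11.1%) and C-exo replicate 1 for 0 (35.6%). The 2 highest in R-exo replicate 2 were miR-141-3p, an epithelial miRNA, with 125.2 CPM there and 17.3 to 91.5 CPM in the other libraries, and miR-183-5p, with 297.9 CPM there and 67.2 to 238.7 CPM in the others; these were named after their values were seen.

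The most abundant of the list was miR-148a-3p, which is made in acinar cells but also in liver and many other tissues. It had 63770, 47960 and 123600 CPM in C-exo replicates 1, 2 and 3, and 77980, 87230 and 71500 CPM in R-exo replicates 1, 2 and 3, and its log2 fold change was 0.008 (SE 0.43). Its level varied more within C-exo than between the groups, and R-exo replicate 2 was below C-exo replicate 3. Next came miR-7a-5p, which is shared by islets and brain, for which C-exo replicates 1 to 3 gave 3133, 1442 and 1622 CPM and R-exo replicates 1 to 3 gave 3961, 2432 and 3171 CPM. The log2 fold change of miR-7a-5p was 0.63 (SE 0.47, edgeR, unadjusted p = 0.212), and C-exo replicate 1 lay within the R-exo range.

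Among miRNAs of other organs, miR-122-5p of the liver had 28300, 56890 and 67050 CPM in C-exo replicates 1, 2 and 3, and 35620, 28770 and 32800 CPM in R-exo replicates 1, 2 and 3. Its log2 fold change of -0.65 (SE 0.42, edgeR, unadjusted p = 0.158) was near that of miR-375-3p, and neither passed the test. miR-192-5p, of liver and gut, was nearly level at -0.01 (SE 0.35). miR-194-5p, from the same loci as miR-192-5p, had 0.56 (SE 0.63). R-exo replicate 2 was within the range of the other libraries for miR-122-5p and miR-192-5p, and was the highest for miR-194-5p with 1240 CPM, close to C-exo replicate 3 (1235 CPM) and above the other 4 (286 to 824 CPM). In the remaining lists, none of the 5 striated muscle and none of the 4 platelet and leukocyte miRNAs had an unadjusted p under 0.05, against 1 of the 2 endothelial and 2 of the 5 red cell miRNAs, all 3 of them higher in R-exo and each with an adjusted p of 0.461 (edgeR). Over all 404 tested miRNAs, 38 had such an unadjusted p, 8 of them higher in R-exo. The platelet and leukocyte list summed to 26860 CPM in R-exo replicate 2, 21390 CPM in C-exo replicate 3 and 3553 to 11780 CPM in the other 4 libraries, and miR-142-5p made up 24670 CPM of the sum in R-exo replicate 2. The other 3 of this list were each highest in another library, miR-223-3p in C-exo replicate 1 (793.5 CPM, against 387.5 in R-exo replicate 2), miR-150-5p in C-exo replicate 3 and miR-142-3p in R-exo replicate 1. The part of blood cell miRNAs in the acinar values was not tested.

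The miRNAs with the most similar profiles were found by the root-mean-square difference of log2 CPM, centered on the mean over the 6 libraries, which is 0 for equal profiles. For miR-217-5p the nearest of the tested miRNAs were miR-142-5p (0.78), which is made in blood cells, miR-34b-3p (0.80) and miR-29b-3p (0.83), against a median of 1.57 over all. miR-142-5p had 2444, 2321 and 18750 CPM in C-exo replicates 1, 2 and 3, and 8892, 24670 and 9243 CPM in R-exo replicates 1, 2 and 3. Like miR-217-5p, all 3 were highest in R-exo replicate 2, but C-exo replicate 3 was their next highest library, and none stood as far above its own mean as miR-217-5p in R-exo replicate 2.

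For miR-375-3p the nearest were miR-1306-5p (0.12), miR-484 (0.21), whose maturation is known not to need Drosha, and miR-664-2-5p (0.29), against a median of 0.82. miR-484 had 343, 172 and 197 CPM in C-exo replicates 1, 2 and 3, and 160, 262 and 153 CPM in R-exo replicates 1, 2 and 3. All 3 shared with miR-375-3p the high value of C-exo replicate 1, which was the highest library for 35.6% of all tested miRNAs. The 6 libraries are few, and depth and composition are common to all profiles compared.

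**Figure D5:**
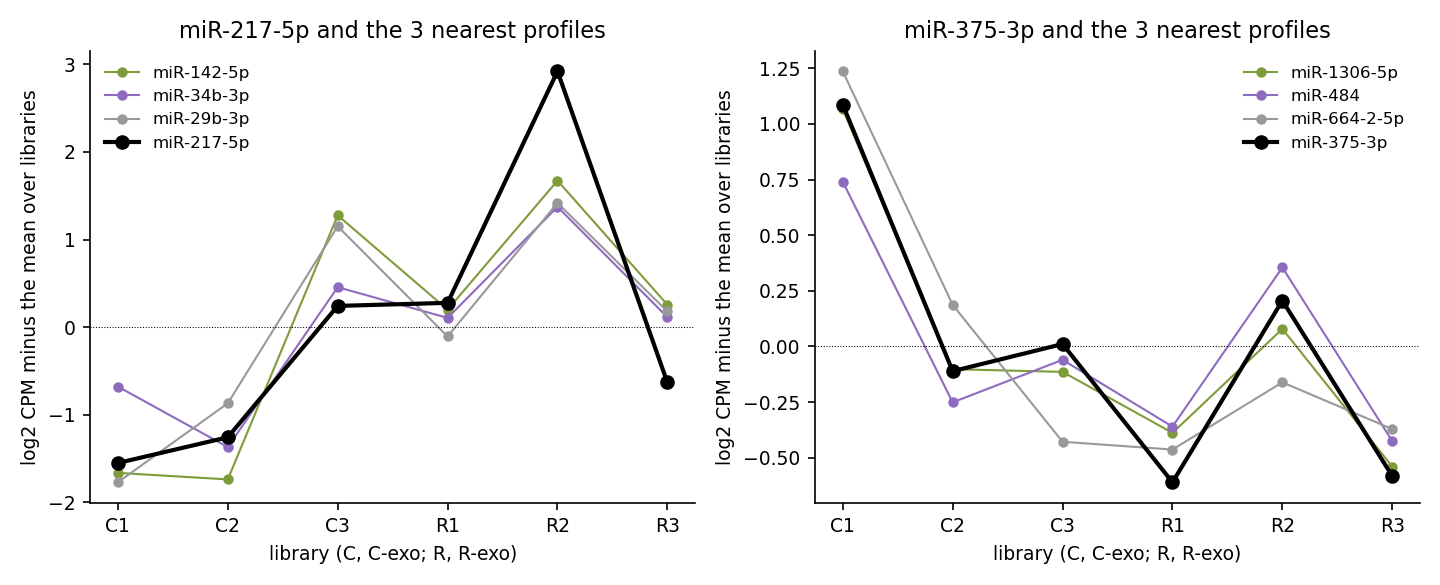
Lines join the log2 CPM of a miRNA in the 6 libraries (x axis, C1 to C3 for C-exo and R1 to R3 for R-exo), centered on its mean (y axis), for miR-217-5p (left, black) and miR-375-3p (right, black) with their 3 nearest miRNAs. miR-217-5p peaks in R-exo replicate 2 above its nearest miRNAs, and miR-375-3p and its nearest miRNAs are highest in C-exo replicate 1.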

How the data were processed

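Small RNA from plasma exosomes was sequenced on an Illumina HiSeq platform in 3 C-exo and 3 R-exo libraries. The authors deposited raw counts, the reads on each of 763 mature rat miRNAs per library, without normalization. Each column holds 1 library, and whether a library pooled several rats is not given in the sources used here. The submitters' processing notes list bcl2fastq, BWA and the build rn6, with no versions. Which miRNA database was used, how many mismatches were allowed and how reads with several matches were counted are not given in the sources used here. These steps could move reads between related miRNAs. Libraries were grouped by the titles of the samples.

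The analysis used edgeR 4.0.16 in R 4.3.3. filterByExpr (minimum count 10, minimum total count 15) kept 404 of the 598 miRNAs with any count. After TMM scaling, groups were compared with the quasi-likelihood test (no covariate), and p-values were adjusted over all 404 by Benjamini-Hochberg. Standard errors came from the fold change and its F statistic. Log2 CPM used a prior count of 2. The criterion of fold change and p is the one the study states. Single values were compared by exact permutation. Alternatives were upper quartile, RLE and plain library-size (RPM) scaling, other filters, the exact test of edgeR, DESeq2 1.42.0, voom in limma 3.58.1, a robust fit, the replicate number as a block, and each library left out. The procedure was tested on simulated counts. Ratios of pooled counts carry exact binomial intervals. Figures were drawn with matplotlib 3.10.9.

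The members and the lists were chosen with earlier results of these data known. The text names the 7 members, miR-375-5p, members of fixed organ lists, the 3 nearest profiles of miR-217-5p and miR-375-3p, and tested miRNAs outside the members with over 80% of their R-exo CPM in the library with the highest acinar sum, of which there were 0. Outside this rule, miR-741-3p, miR-881-3p, miR-471-5p, miR-871-3p, miR-133a-5p, miR-133b-3p, miR-208b-3p, miR-141-3p and miR-183-5p were given values, or shares of a library, after these were seen.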

Additional observations from a re-analysis of the deposited data

How the results depend on the processing

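miR-217-5p kept its direction in all 16 alternatives and miR-375-3p in all 16. For miR-217-5p, 8 of the 10 alternatives with all 6 libraries and 3 of the 6 that left out 1 library gave an unadjusted p under 0.05. It was lost with limma-voom (log2 fold change 1.69) and with the replicate block (1.77, unadjusted p = 0.117 by edgeR), and the log2 fold change was 0.55 to 3.10 with 1 library left out. The adjusted p of miR-217-5p was 0.197 to 0.543 with all 6 libraries and 0.0179 to 0.845 with 1 left out (edgeR, DESeq2 or limma). For miR-375-3p the log2 fold change was -0.75 to -0.51 with all 6 libraries and -1.02 to -0.30 with 1 left out, and p was never under 0.05.

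The number of members that met the criterion, 1, became 4 without a filter on low counts (63 of all 598 miRNAs), 0 with limma-voom (49 of 404), 0 with the replicate block (38 of 404) and 0 to 3 with 1 library left out. The 3 arose without C-exo replicate 3 (182 of 422) and without R-exo replicate 3 (15 of 426). Besides miR-217-5p they were miR-216a-5p and miR-216b-5p in both fits. Neither of these arms reached 10 counts in any C-exo library. They passed the filter through R-exo alone, so their direction was fixed by it. The number with an adjusted p under 0.05 was 0 to 2 with 1 library left out, the 2 arising without C-exo replicate 3, where 132 of 422 passed. More arms pass the filter in some of these fits and so enter the medians given next. Fitted changes of arms with 0 reads in C-exo libraries depend on the prior count. The median log2 fold change of the members tested, 0.79 over 2 members, was 2.47 without the filter (6 members) and -0.24 to 3.10 with 1 library left out, the lowest, below 0, being without R-exo replicate 2. The difference between the groups' mean log2 CPM of the summed cluster, 1.74, which unlike the ratio of mean CPM weights the libraries on the log scale, was 1.90 with library size only and 0.69 to 2.47 with 1 library left out, lowest without R-exo replicate 2. Detection at 3 counts instead of 1 left 2 to 6 members per library. Scaling to library size only moved the median log2 fold change of all tested miRNAs from -0.05 to 0.10.

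The labels number the libraries 1 to 3 in both groups, but control and RIPC rats are different animals. Deviations of same-numbered libraries from their group means correlated at 0.329, -0.275 and 0.279, and 2 of the 6 libraries correlated best with their own number. With 3 libraries per group this check is too small to decide whether the numbers pair the samples. With the block 38 of all tested miRNAs again met the criterion, but 25 were higher in R-exo and 13 in C-exo, against 8 and 30 without it.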
